A study of Mus musculus with 6 samples.

Results

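The p53 pathway and target genes described here are 33 genes taken by symbol from a table of 53445 loci, and all 33 were found. They are Trp53, which encodes p53, the genes of the proteins that hold p53 down, and genes that p53 is known to switch on in apoptosis, growth arrest, DNA repair and the response to nutrient or oxidative stress. Where a symbol stood for several loci, the longest was used.

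The RNA came from LSK cells, the Lin-Sca+Kit+ fraction of bone marrow that holds blood stem cells and multipotent progenitors. Female mice of about 12 weeks on a C57BL/6 background were used, 3 OgaVav-Cre and 3 wildtype, and each gave 1 library from at least 20000 sorted cells. OgaVav-Cre mice carry floxed Oga alleles and the Vav-iCre transgene, which is driven by Vav regulatory sequences and deletes in the whole blood lineage and not in stem cells alone. Oga encodes O-GlcNAcase, the enzyme that removes the sugar O-GlcNAc from proteins. The wildtype libraries are not described as carrying Cre, so loss of Oga and presence of Cre cannot be told apart.

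In unstressed cells p53 is made and destroyed continuously, because MDM2 marks it for degradation and MDM4 blocks its activity. DNA damage and other stresses release p53, which then turns on genes that stop the cell cycle, repair DNA or start mitochondrial apoptosis, and also Mdm2, closing a feedback loop. In blood stem cells p53 is known for limiting proliferation and for removing damaged cells. Most of this control acts on the p53 protein, so the level of Trp53 mRNA is not a measure of p53 activity, and the mRNAs of its targets are the usual readout.

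The libraries held 25190298 to 27064389 counted reads in OgaVav-Cre mice and 19318056 to 21684561 in wildtype mice. Oga, listed under its former symbol Mgea5, had 104, 109 and 110 reads in OgaVav-Cre against 3164, 2970 and 2736 reads in wildtype mice, and 3.09% of the wildtype level was left. Of the 10 LSK markers looked at, all were detected, and their summed level was 1077 to 2113 CPM (read counts relative to library size) in OgaVav-Cre against 1373 to 2234 in wildtype mice. OgaVav-Cre replicate 3 stood apart, with the lowest summed LSK markers (1077 CPM) and the highest sum over the 13 lineage-positive markers listed in the table, 1147 CPM against 205 to 486 in the other libraries. OgaVav-Cre replicate 1 had the highest sum over 9 plasma cell genes (12498 CPM against 1803 to 8217), and wildtype replicate 1 the highest sum over 15 mitosis genes (3034 CPM against 1113 to 1991). Hbb-b1 alone held 630 CPM of the lineage-positive sum in OgaVav-Cre replicate 3. Igj alone held 9926 CPM of the plasma cell sum in OgaVav-Cre replicate 1. The median log2 difference from the wildtype mean was also highest in these libraries, at 1.81 for the lineage-positive markers and 1.64 for the plasma cell genes. Since these are bulk samples, fewer cells of a type and less RNA per cell cannot be told apart.

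The members were chosen by symbol and not by sequence, but as known p53 targets many can be assumed to have a p53 binding site, so sites were counted as a description. A p53 response element is a pair of half-sites of 10 bases each, and its consensus reads the same on both strands. Only adjoining pairs were searched, so pairs with bases between the half-sites were not counted. In a window of 2000 bases on each side of the start of the locus, 6 of the 32 members tested for expression (18.8%) held a pair of adjoining half-sites with at most 1 mismatch to the consensus. Of all 22018 tested loci with a window, 1.24% did, and 1.29% of those with a RefSeq gene name. At most 2 mismatches were found for 11 members (34.4%) and for 13% of all tested loci. Zmat3 held the match without a mismatch.

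The sites with at most 1 mismatch are shown because they mark which members hold such an adjoining pair close to their start. They were read from the mm9 genome, the build of the deposited table, on the strand of the gene and 5′ to 3′. Capitals mark the bases of the 20-base site that match the consensus, and lower case marks 5 bases on each side and the mismatch. Gdf15 was too low to be tested and is not among the 6.
Zmat3, chr3:32263248-32263277, minus strand, in an intron: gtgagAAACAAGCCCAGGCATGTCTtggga
Ccng1, chr11:40568959-40568988, minus strand, upstream: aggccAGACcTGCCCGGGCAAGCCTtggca
Ccng1, chr11:40568433-40568462, minus strand, in an intron: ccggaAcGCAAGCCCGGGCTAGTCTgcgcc
Mdm2, chr10:117148721-117148750, minus strand, upstream of the listed start: gaactGGGCAAtTCCGGGCAAGTCCgggcc
Eda2r, chrX:94572025-94572054, minus strand, in an intron: gctggGAAtATGCCCGGACTTGTCCaacaa
Rps27l, chr9:66794098-66794127, plus strand, in an intron: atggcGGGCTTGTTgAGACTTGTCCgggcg
Gtse1, chr15:85690370-85690399, plus strand, in an exon: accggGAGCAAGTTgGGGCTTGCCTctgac
Gdf15, chr8:73155860-73155889, minus strand, in an exon: aggggtGACTTGCCTGAACTTGCCTtttct

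Whether a site lies in an exon or an intron was taken from GENCODE vM1, the annotation of that build. In the shorter RefSeq promoter windows (GRCm38.p6, 250 bases before to 50 bases after the start), which were found for 25 of the 33 members, 11 members (44%) held at least 1 exact half-site, against 9.55% of all 27025 genes with a window. These 11 were Trp53, Mdm2, Bax, Ccng1, Sesn1, Aen, Polk, Ei24, Gtse1, Ppm1d and Rps27l. Phlda3 held none there, which says only that these letters are not in this window. The 6 members with a site in the wider window did not move one way between genotypes. Their log2 fold changes, OgaVav-Cre relative to wildtype, ran from -0.24 in Mdm2 to 0.42 in Eda2r, 3 above and 3 below 0, with a median of -0.0015 against 0.0072 in the 26 members without a site.

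Whether the p53 program differed between genotypes was asked gene by gene. In OgaVav-Cre LSK cells no member passed both cutoffs in edgeR's quasi-likelihood test, which were 0.05 for the adjusted p and 1 for the absolute log2 fold change. Phlda3, an inhibitor of AKT signaling, stood highest, at 2.73 times its wildtype level, and Polk, a DNA polymerase that copies damaged templates, and Mdm2 stood below wildtype in every library. Trp53 itself, the pro-apoptotic Bax and the nuclease gene Aen differed from wildtype by less than 0.05 on the log2 scale. For the other tested members the libraries of the genotypes overlapped.

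Of the 33 members, 32 had enough reads to be tested, and 0 passed both cutoffs, where 7 of 22032 loci did (0.0318%). At an unadjusted p below 0.05, 1 member was higher in OgaVav-Cre (Phlda3) and 1 was lower (Polk), 3.12% each, against 4.38% of all loci higher and 6.27% lower. All OgaVav-Cre libraries lay above all wildtype libraries for 1 member (Phlda3, 3.12%) and below them for 2 members (Mdm2 and Polk, 6.25%), against 7.5% and 9.97% of all loci. These shares were near or under those of all loci. DESeq2's Wald test, the test used by the authors, was rerun here on the deposited counts, and its calls need not be theirs. In this rerun 1 member passed both cutoffs upward (Phlda3) and 0 downward, against 0.142% and 0.332% of 24725 loci. At an unadjusted p below 0.05 it also named Phlda3 and Polk.

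The fold changes of the members were evenly split, with 16 above and 16 below 0. Their median log2 fold change was 0.0072, beside 0.0041 over all loci, and the median of their absolute values was 0.20, beside 0.24. The 95% interval of the log2 fold change lay wholly between -1 and 1 for 21 of the 32 members (65.6%; 58.3% of all loci), so that for these a change of 2-fold or more lies outside the interval. For 8 members it lay within 0.5 of 0. For 3 mice against 3 a two-sided exact permutation test of a single value cannot go below p = 0.1, and Phlda3, Polk and Mdm2 are at that value.

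**Figure D1:**
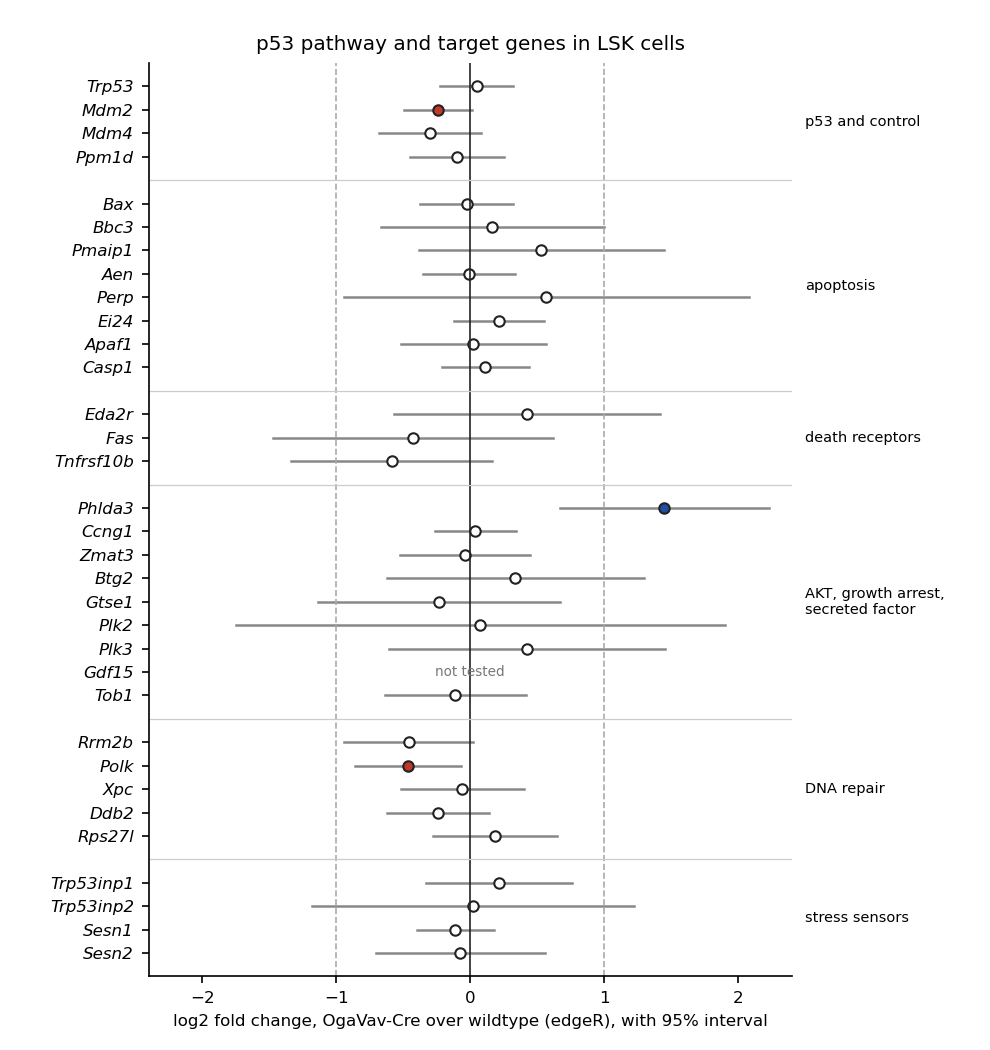
Log2 fold change of OgaVav-Cre over wildtype for each p53 pathway member, grouped by role, with lines for the 95% interval of edgeR's fit and dashed lines at -1 and 1. The blue point is Phlda3 (1.45), whose OgaVav-Cre libraries all lay above wildtype, and the red points are Mdm2 (-0.24) and Polk (-0.46), whose libraries all lay below. Gdf15 was not tested.

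Trp53 and the genes that directly control it came first. Trp53, on chromosome 11 from 69393861 to 69406999 (plus strand, mm9), had 4245, 4577 and 4408 reads in OgaVav-Cre against 3682, 3251 and 4060 reads in wildtype mice. These were 188, 181 and 161 CPM against 173, 169 and 172 CPM, so that the OgaVav-Cre libraries lay on both sides of the wildtype ones. The log2 fold change was 0.05 (standard error 0.12, 95% interval -0.22 to 0.32, edgeR adjusted p = 0.902). Among wildtype mice Trp53 was the most even member, with a coefficient of variation of 1.2%, where the median member had 13.5%.

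Mdm2, which encodes the ubiquitin ligase that marks p53 for degradation and is itself a p53 target, lies on chromosome 10 from 117125944 to 117147814 (minus strand). It had 1735, 1851 and 2206 reads in OgaVav-Cre against 1848, 1887 and 2072 reads in wildtype mice. Scaled to library size these were 76.9, 73.2 and 80.5 CPM against 86.6, 97.9 and 87.7 CPM. All 3 OgaVav-Cre libraries lay below all wildtype libraries, by a small step. The log2 fold change was -0.24 (standard error 0.11, 95% interval -0.49 to 0.016, edgeR adjusted p = 0.490), a level of 84.8% of wildtype, and leaving out any 1 library gave -0.27 to -0.17.

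Mdm4 encodes the relative of MDM2 that binds p53 and blocks its activity. It ranked high among the members in CPM, which are not corrected for gene length. Its libraries were at 249, 184 and 242 CPM in OgaVav-Cre against 243, 282 and 308 CPM in wildtype mice. The groups met at their edges, since OgaVav-Cre replicate 1 lay just above wildtype replicate 1. Its log2 fold change was -0.30 (standard error 0.16, edgeR adjusted p = 0.537). Ppm1d, the gene of the phosphatase WIP1 that turns off damage signaling to p53, ranged over 23.9 to 28.8 CPM in OgaVav-Cre against 25.6 to 32.2 CPM in wildtype mice (log2 fold change -0.10, standard error 0.15). Of the 4 genes in this group, 0 passed both cutoffs, and the 95% interval of all 4 lay between -1 and 1.

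**Figure D2:**
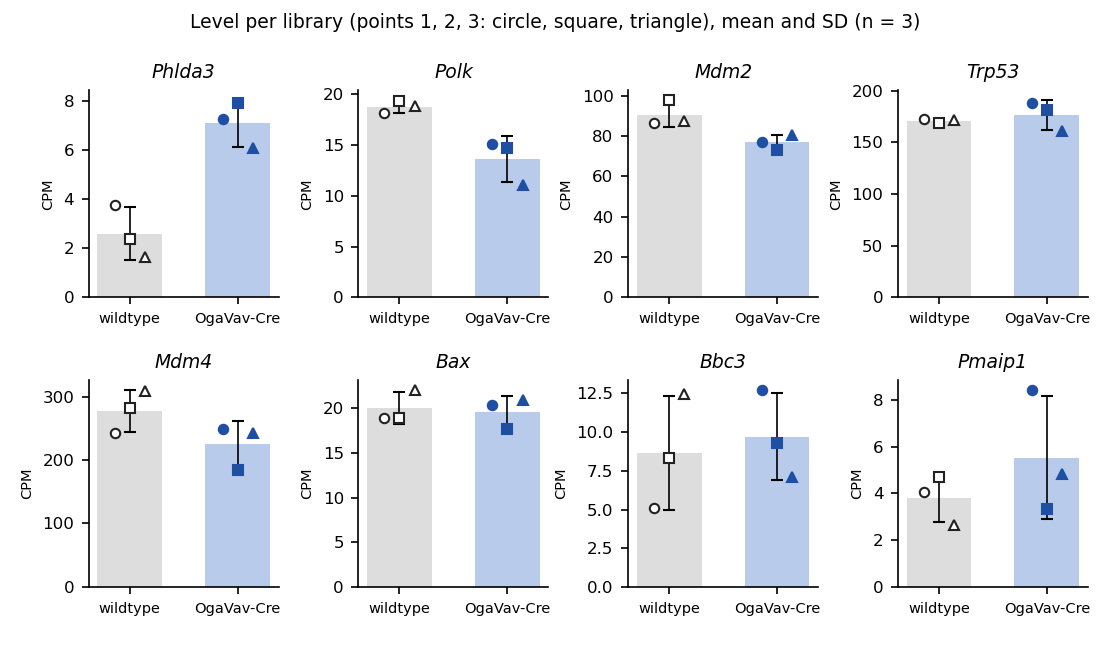
Level in CPM (vertical axis, from 0) of 8 p53 pathway genes in wildtype (grey bars) and OgaVav-Cre (blue bars) LSK cells. Bars give the mean and lines the SD of 3 libraries, and circle, square and triangle mark replicates 1, 2 and 3. The genotypes separate in Phlda3 (6.06 to 7.91 CPM above 1.65 to 3.75), Polk and Mdm2, and overlap in the other 5.

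Among the genes grouped here as apoptosis genes, 6 of 8 had a log2 fold change above 0, where 50.5% of all loci did. None passed either cutoff on p. Bbc3 and Apaf1, both above 0, and Bax and Aen, both below, changed sign when 1 library was left out. Bax, whose product opens the outer mitochondrial membrane, had 458, 445 and 573 reads in OgaVav-Cre against 404, 365 and 521 reads in wildtype mice. Its level was 20.3, 17.6 and 20.9 CPM against 18.9, 18.9 and 22.0 CPM, with the libraries of both genotypes interleaved. The log2 fold change was -0.03 (standard error 0.15, 95% interval -0.37 to 0.32, edgeR adjusted p = 0.962).

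The 2 BH3-only genes that p53 is best known for switching on in apoptosis, Bbc3 (PUMA) and Pmaip1 (NOXA), were low and uneven. Bbc3 was at 12.7, 9.30 and 7.11 CPM in OgaVav-Cre against 5.11, 8.35 and 12.5 CPM in wildtype mice, a full overlap. The log2 fold change of Bbc3 was 0.17 (standard error 0.36, 95% interval -0.66 to 0.99, edgeR adjusted p = 0.886), and -0.080 without OgaVav-Cre replicate 1. Pmaip1 was at 8.43, 3.32 and 4.82 CPM in OgaVav-Cre against 4.08, 4.72 and 2.67 CPM in wildtype mice. OgaVav-Cre replicate 1 was the high one and the other 5 libraries overlapped. For Pmaip1 the log2 fold change was 0.53 (standard error 0.39, 95% interval -0.38 to 1.45, edgeR adjusted p = 0.635) and was 0.098 without that library, which was also highest in plasma cell genes. With the share of immunoglobulin reads in each library as a covariate, the log2 fold change of Pmaip1 was 0.25. Beyond this fit the part of those cells in this difference was not tested.

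Of the other apoptosis genes, Aen, an exonuclease, and Apaf1, the scaffold on which caspases are activated, had log2 fold changes of -0.0093 (standard error 0.15) and 0.02 (standard error 0.23). Casp1, an inflammatory caspase, lay at 36.0 to 39.9 CPM in OgaVav-Cre against 31.6 to 40.7 CPM in wildtype mice (log2 fold change 0.11). Ei24, an endoplasmic reticulum protein induced by p53, ranged over 39.7 to 51.2 CPM against 35.9 to 44.0 CPM, an overlap of a single library in each genotype (log2 fold change 0.22, standard error 0.14). Perp, a membrane protein of desmosomes with a role in p53-dependent death, was at 0.876 to 3.48 CPM against 0.592 to 2.59 CPM, and its interval of -0.95 to 2.08 holds changes of both signs. Perp was also the member that varied most among wildtype mice, with a coefficient of variation of 67.6%.

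The death receptors Fas and Tnfrsf10b, which start apoptosis from the cell surface, and Eda2r, grouped with them here, were low in LSK cells of both genotypes. Fas lay at 0.791 to 1.5 CPM in OgaVav-Cre against 0.937 to 2.24 CPM in wildtype mice (log2 fold change -0.42, standard error 0.45). Tnfrsf10b, the receptor of the ligand TRAIL, lay at 2.88 to 4.17 CPM against 4.02 to 7.16 CPM, overlapping by OgaVav-Cre replicate 1 alone (log2 fold change -0.58, standard error 0.32, edgeR adjusted p = 0.544). The high wildtype library for Tnfrsf10b was replicate 2, and without it the log2 fold change was -0.25. Eda2r, a TNF receptor family member, lay at 1.06 to 1.94 CPM against 0.750 to 1.31 CPM (log2 fold change 0.42, standard error 0.43). None of the 3 intervals lay within -1 and 1, so changes beyond 2-fold lie inside the intervals of these low genes.

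Phlda3 was the member that stood out. It encodes a small PH-domain protein that is induced by p53 and competes with AKT for membrane lipids, and it lies on chromosome 1 from 137662662 to 137665713 (plus strand, mm9). There were 164, 200 and 166 reads in OgaVav-Cre against 80, 46 and 39 reads in wildtype mice, or 7.27, 7.91 and 6.06 CPM against 3.75, 2.39 and 1.65 CPM. Every OgaVav-Cre library lay above every wildtype library, and the lowest of them was 6.06 CPM beside a highest wildtype value of 3.75 CPM.

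The means were 7.08 ± 0.944 CPM (SD, n = 3) and 2.59 ± 1.06 CPM (SD, n = 3). In edgeR the log2 fold change of Phlda3 was 1.45 (standard error 0.33, 95% interval 0.67 to 2.23), and its edgeR adjusted p was 0.384, so it did not pass. By p it was locus 157 of 22032 in edgeR, the first 0.713%. DESeq2's Wald test gave a log2 fold change of 1.46 and an adjusted p of 0.0142, which passes both cutoffs. Leaving out any 1 library kept the edgeR log2 fold change between 1.2 and 1.81 and its edgeR adjusted p between 0.189 and 0.862. In DESeq2 the call was kept without OgaVav-Cre replicate 3 (DESeq2 adjusted p = 0.0137) and without wildtype replicate 1 (DESeq2 adjusted p = 4.7e-05). It was lost without any 1 of the other 4, OgaVav-Cre replicate 1 or 2 or wildtype replicate 2 or 3, with a DESeq2 adjusted p between 0.091 and 0.169.

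Of the other growth arrest genes tested, none passed an unadjusted p of 0.05. Ccng1, cyclin G1, a p53 target that works with a phosphatase on MDM2, averaged 110 ± 12.9 CPM (SD, n = 3) in OgaVav-Cre against 107 ± 8.30 CPM (SD, n = 3) in wildtype mice (log2 fold change 0.04, standard error 0.13). Zmat3, an RNA-binding zinc finger protein and a p53 target in many tissues, was at 7.24 to 10.1 CPM against 7.78 to 9.10 CPM (log2 fold change -0.04, standard error 0.21). Both hold a site printed above, and both intervals lay between -1 and 1. Tob1, an antiproliferative protein related to BTG2, lay at 24.2 to 28.1 CPM against 19.1 to 35.4 CPM (log2 fold change -0.11, standard error 0.23).

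Btg2, Plk2 and Plk3 were high in the same single library. Btg2, an antiproliferative gene induced both by p53 and by growth factors, was at 75.4, 40.5 and 152 CPM in OgaVav-Cre against 70.1, 61.6 and 80.5 CPM in wildtype mice. Plk2 and Plk3, polo-like kinases of the stress response, were highest in OgaVav-Cre replicate 3 as well, at 2.96 CPM against 0.266 to 1.66 CPM and at 2.70 CPM against 0.989 to 1.60 CPM in the other 5 libraries. Across the 17 immediate early genes tested, the transcripts that appear within minutes of stimulation, the same library had the highest summed level, 600.2 CPM against 283 to 425 CPM.

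The log2 fold changes of Btg2 (0.34), Plk2 (0.07) and Plk3 (0.42) were -0.29, -1.29 and -0.03 without OgaVav-Cre replicate 3, and none passed a cutoff on p in either fit. That library also held the most lineage-positive marker RNA, and the part of either in these levels was not tested. Gtse1, a G2 and S phase protein that carries p53 out of the nucleus, was at 34.8 CPM in wildtype replicate 1 and 11 to 19 CPM in the other 5 libraries. Wildtype replicate 1 was also the library with the most mitosis RNA, and without it the log2 fold change of Gtse1 went from -0.23 to 0.39. The part of cell cycle in this level was not tested.

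Gdf15, a secreted factor of the TGF-beta family and a common serum marker of p53 and stress responses, had 2, 6 and 14 reads in OgaVav-Cre against 6, 11 and 5 reads in wildtype mice. It was left out by the filter on low counts. In 1 OgaVav-Cre library its count lay under the floor of 3 reads.

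**Figure D3:**
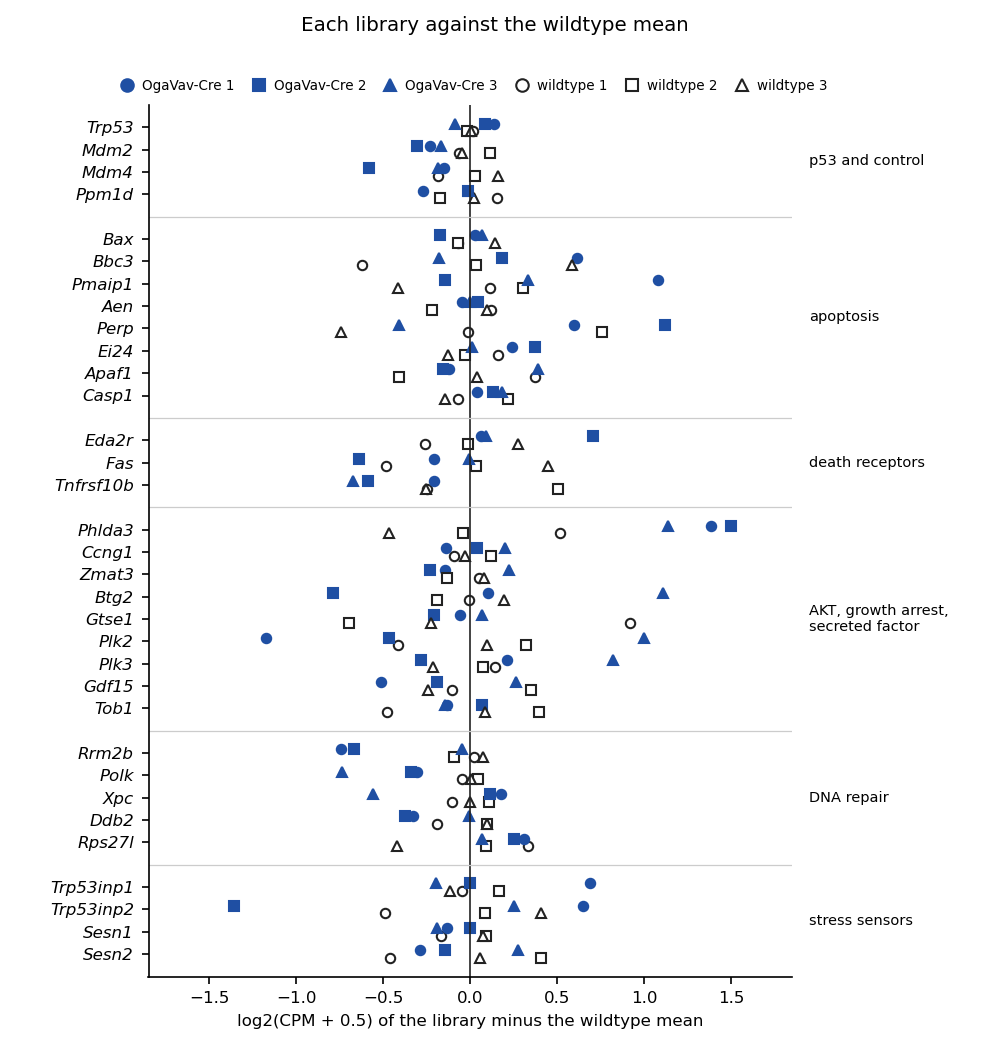
Level of each member in each library as log2(CPM + 0.5) minus the mean of the wildtype libraries (horizontal axis), with OgaVav-Cre libraries filled and wildtype libraries open. Btg2, Plk2 and Plk3 have their highest point in OgaVav-Cre replicate 3 (triangle), Pmaip1 and Trp53inp1 theirs in OgaVav-Cre replicate 1 (circle), and Gtse1 its highest in wildtype replicate 1.

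In DNA repair and nucleotide supply, 4 of the 5 members had a log2 fold change below 0, where 10913 of all 22032 loci did. Polk encodes a translesion DNA polymerase and lies on chromosome 13 from 97250644 to 97312534 (minus strand, mm9). There were 341, 373 and 303 reads in OgaVav-Cre against 387, 374 and 446 reads in wildtype mice, or 15.1, 14.8 and 11.1 CPM against 18.1, 19.4 and 18.9 CPM. All OgaVav-Cre libraries lay below all wildtype libraries, and the wildtype values were close to each other, with a coefficient of variation of 3.38%.

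The log2 fold change of Polk was -0.46 (standard error 0.17, 95% interval -0.86 to -0.07, edgeR adjusted p = 0.439), a level of 72.6% of wildtype. Leaving out any 1 library gave values from -0.54 to -0.33, and without OgaVav-Cre replicate 3 (-0.33), wildtype replicate 2 (-0.44) or wildtype replicate 3 (-0.46) Polk was no longer past an unadjusted p of 0.05. Another listed locus, AK132095, overlaps Polk on the opposite strand and had 124, 95 and 92 reads in OgaVav-Cre against 138, 133 and 198 in wildtype mice. Whether strand was used in counting is not stated in the sources used here, so reads of the pair cannot be told apart where they overlap. Other members also overlap loci on the opposite strand, and the same limit holds for them. Among these are Ddb2 with Acp2, Apaf1 with AK147902 and Sesn2 with LOC100503860. AK041909 overlaps Polk on the same strand, with 16, 16 and 9 reads in OgaVav-Cre against 15, 17 and 19 in wildtype mice. Sesn1, Rrm2b, Apaf1 and Ppm1d also overlap loci on their own strand, and using strand would not separate those reads.

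Rrm2b, the p53-induced subunit of ribonucleotide reductase that supplies nucleotides for repair, was at 18.9, 19.9 and 31.0 CPM in OgaVav-Cre against 32.5, 29.9 and 33.6 CPM in wildtype mice. OgaVav-Cre replicates 1 and 2 lay well below wildtype, and replicate 3 lay among the wildtype libraries. The log2 fold change was -0.46 (standard error 0.21, 95% interval -0.94 to 0.02, edgeR adjusted p = 0.487), and it was -0.72 (edgeR adjusted p = 0.208) without OgaVav-Cre replicate 3.

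Ddb2 and Xpc, which recognise ultraviolet damage for nucleotide excision repair, had log2 fold changes of -0.24 (standard error 0.16) and -0.06 (standard error 0.20). For Ddb2 the libraries ran from 20.4 to 26.5 CPM in OgaVav-Cre and from 23.2 to 28.5 CPM in wildtype mice. Xpc was lowest in OgaVav-Cre replicate 3, at 57.6 CPM beside 79.3 to 96.3 CPM in the other 5 libraries, and without it the log2 fold change was 0.14. Rps27l, a ribosomal protein relative that p53 induces, was at 38.2 to 45.3 CPM against 27.1 to 45.9 CPM (log2 fold change 0.18, standard error 0.20). Reads of Rps27l can be shared with its near copy Rps27, so its level is uncertain.

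Of the 4 stress sensors and autophagy genes, 0 passed an unadjusted p of 0.05 in edgeR or DESeq2. Sesn1 and Sesn2, sestrins that restrain the growth kinase mTORC1, had log2 fold changes of -0.11 (standard error 0.12) and -0.08 (standard error 0.27). Sesn1 ran from 102 to 117 CPM in OgaVav-Cre and from 104 to 125 CPM in wildtype mice. Sesn2 ran from 9.80 to 14.7 CPM and from 8.62 to 16.2 CPM. Trp53inp1, a nuclear cofactor of p53 that also takes part in autophagy, was at 369, 228 and 200 CPM in OgaVav-Cre against 221, 257 and 211 CPM in wildtype mice.

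The high value of Trp53inp1 was OgaVav-Cre replicate 1, the library with the most plasma cell RNA, and without it the log2 fold change went from 0.21 to -0.10. With the share of immunoglobulin reads as a covariate, the log2 fold change of Trp53inp1 was -0.040. Beyond this fit the part of those cells was not tested. Trp53inp2, its relative in autophagy, was at 11.4, 2.45 and 8.5 CPM against 4.87, 7.52 and 9.52 CPM (log2 fold change 0.02, standard error 0.52). OgaVav-Cre replicate 2 was the low one.

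**Figure D4:**
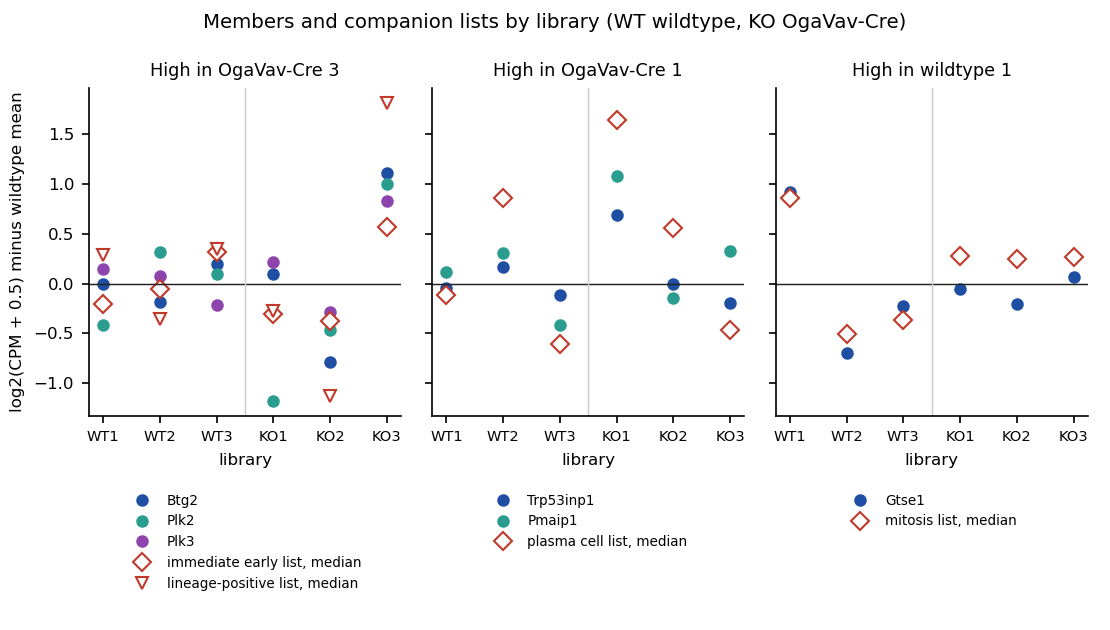
Members high in 1 library beside the median of a companion gene list, each as log2(CPM + 0.5) minus its wildtype mean (vertical axis), by library (WT1 to WT3 wildtype, KO1 to KO3 OgaVav-Cre). Btg2, Plk2 and Plk3 peak with the immediate early (0.57) and lineage-positive (1.81) lists in OgaVav-Cre replicate 3. Trp53inp1 and Pmaip1 peak with the plasma cell list (1.64) in OgaVav-Cre replicate 1, and Gtse1 with the mitosis list (0.86) in wildtype replicate 1.

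Across the members as a set, OgaVav-Cre replicate 2 was the lowest library. The median over the 32 tested members of the difference from the wildtype mean was -0.052, -0.14 and 0.0061 for the OgaVav-Cre replicates against -0.057, 0.058 and 0.029 for the wildtype ones, in the order 1 to 3. All OgaVav-Cre values lay below wildtype replicates 2 and 3, and those of replicates 1 and 3 lay above wildtype replicate 1, so that the genotypes overlapped by that library. The SD of the wildtype values was 0.0599. OgaVav-Cre replicate 2 was the lowest of the 6 libraries for 9 members, and wildtype replicate 2 the highest for 7.

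Per length, using the deposited RPKM, the members spanned from 41.2 (Rps27l) to 0.136 (Gdf15) as a median over wildtype libraries, with a median member at 4.08. After Rps27l came Trp53inp1 (30.6), Ccng1 (25.6), Sesn1 (23.4), Btg2 (20.4), Trp53 (20.3) and Mdm4 (16.9). Rps27l and Trp53inp1 overlapped in range over wildtype libraries (30.3 to 50.4 and 29.7 to 34.3), as did Ccng1 and Sesn1, Sesn1 and Btg2, Btg2 and Trp53, and Trp53 and Mdm4. Trp53inp1 lay above Ccng1 in every wildtype library. The pro-apoptotic genes stood lower, with Bax at 12.7, Bbc3 at 3.20 and Pmaip1 at 1.34 RPKM. The death receptors Fas (0.748) and Tnfrsf10b (0.726), and Eda2r (0.144), were lower still. Phlda3 was at 1.30 RPKM in wildtype and 3.65 RPKM in OgaVav-Cre libraries.

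**Figure D5:**
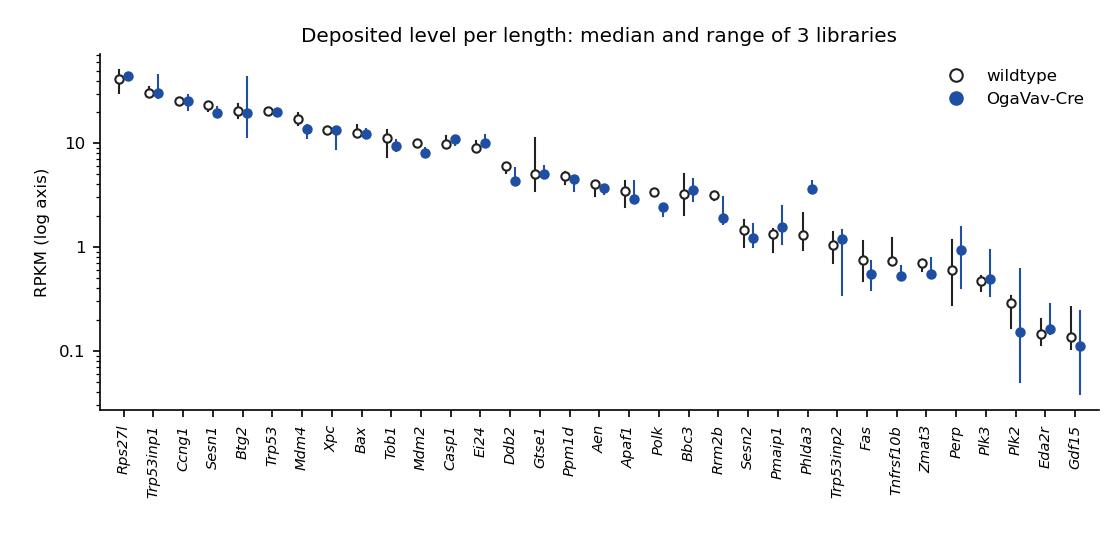
Deposited RPKM of each member on a log axis, ordered by the wildtype median, with points for the median and lines for the range of 3 libraries in wildtype (open) and OgaVav-Cre (filled). The order runs from Rps27l (41.2 in wildtype) to Gdf15 (0.136), and Phlda3 is the member whose genotypes separate upward.

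Other genes of the pathway were read from a list of 27 regulators of p53 and a list of 30 further targets. Of these, 24 regulators and 27 targets were tested, and 0 passed both cutoffs in edgeR or in DESeq2. At an unadjusted p below 0.05, 2 regulators were higher and 1 was lower, and 0 targets were higher and 2 were lower, 3.92% of the 51 genes higher and 5.88% lower, again near the shares of all loci. Their median log2 fold change was -0.006.

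The regulators higher in OgaVav-Cre were the ribosomal protein genes Rpl23 and Rpl5, whose products can bind MDM2 and so release p53 when ribosome assembly is disturbed. Rpl23 averaged 587 ± 92.5 CPM (SD, n = 3) in OgaVav-Cre against 423 ± 16.2 CPM (SD, n = 3) in wildtype mice (log2 fold change 0.47, standard error 0.15, edgeR adjusted p = 0.412). Rpl5 was at 272 ± 28.5 CPM and 205 ± 27.1 CPM (log2 fold change 0.41, standard error 0.15, edgeR adjusted p = 0.437). Both separated the genotypes, but ribosomal protein genes have near-identical copies in the genome, so their counts are uncertain. Rpl11, the gene of another ribosomal protein that binds MDM2, named here after its values were seen, overlapped between genotypes at the longer of its 2 loci (log2 fold change 0.0035, standard error 0.17, edgeR adjusted p = 0.995). That locus held only 10.3 ± 0.731 CPM in OgaVav-Cre and 10.3 ± 0.466 CPM in wildtype mice, far below Rpl23 and Rpl5. The other Rpl11 locus was not examined, so these values do not show whether Rpl11 as a whole differed. Rpl5 also had 2 loci, and the values above are those of the longer one alone. The regulator lower in OgaVav-Cre was Trp53bp1, a double-strand break repair protein that binds p53, at 95.7 ± 5.41 CPM against 117 ± 5.60 CPM (log2 fold change -0.29, standard error 0.11, edgeR adjusted p = 0.445). Crebbp, a histone acetyltransferase that also modifies p53, followed (log2 fold change -0.30, edgeR adjusted p = 0.483), with all OgaVav-Cre libraries below all wildtype libraries. Its values too come from the longer of 2 loci.

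Cdkn1a, the cell cycle inhibitor that is the best known p53 target, averaged 10.3 ± 4.51 CPM (SD, n = 3) in OgaVav-Cre against 11.2 ± 4.43 CPM (SD, n = 3) in wildtype mice. In edgeR the log2 fold change was -0.12 (standard error 0.39, 95% interval -1.02 to 0.78, edgeR adjusted p = 0.928). The targets with the smallest p were Pidd1, a death domain protein (log2 fold change -0.44, edgeR adjusted p = 0.460), and Ercc5, a repair nuclease (log2 fold change -0.34, edgeR adjusted p = 0.468). Next were Bid, a pro-apoptotic protein that links death receptors to mitochondria (log2 fold change 0.18, edgeR adjusted p = 0.568), and Ptprv (log2 fold change -0.56, edgeR adjusted p = 0.573). Bid lay above wildtype in all OgaVav-Cre libraries and Ercc5 below it, while Pidd1 and Ptprv overlapped.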

How the data were processed

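Poly(A) RNA of sorted LSK cells was sequenced by the authors as single-end reads, aligned to mm9 and summarized per locus with Genomatix. Submitters' notes name CASAVA 1.8.2, and versions of the aligner, counting and annotation are not given in the sources used here. The deposited table holds raw counts per locus and library, and RPKM made by the authors from them. It also holds the authors' normalized expression, fold changes and p-values, which were not used. Groups came from the labels. The members and lists were chosen with earlier results of these data known.

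Counts were tested in R 4.3.3 with edgeR 4.0.16 (TMM, filterByExpr, quasi-likelihood test, Benjamini-Hochberg adjustment over 22032 loci). CPM use the same scaling. Genes named in the text are Oga, all members, Cdkn1a and up to 4 regulators and 4 targets with the smallest p. Reads were given for the members that pass a test or separate, and for the central genes. Alternatives were RLE size factors, no filter, a minimum of 10 reads per library, DESeq2 1.42.0, limma-voom (3.58.1), a replicate block, a robust dispersion, the immunoglobulin share as a covariate, limma on log2(RPKM + 0.1) and log2(RPKM + 1), and each library left out. DESeq2 with each library left out was added after seeing the data. The tests were checked on simulated counts. Sites were counted with Python 3.11.15, pandas 2.3.3 and numpy 2.4.6, and figures drawn with matplotlib 3.10.9. Each library came from 1 mouse, and p-values set the difference between genotypes against the spread among libraries of the same genotype.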

Additional observations from a re-analysis of the deposited data

How the results depend on the processing

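Of 661 gene-level alternatives over 41 genes, 606 kept both the sign and the side of the cutoffs. The exceptions in calls were 3 DESeq2 fits in which Phlda3 passed, and 52 values changed sign, in 17 members and Cdkn1a. The other 15 members kept their sign. With 3 libraries a genotype the smallest effects cannot be given a direction.

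The count of members past both cutoffs was 0 in all edgeR and limma alternatives and 1 with DESeq2. With each library left out it was 0 in edgeR and from 0 to 1 in DESeq2. Members lower at an unadjusted p below 0.05 were 1 in the report. They were 2 without a filter, with limma-voom, with the replicate block, with the immunoglobulin share as a covariate and with RPKM + 1, and 3 with RPKM + 0.1 (Mdm2, Mdm4 and Polk). With each library left out they were 0 to 1, and those higher were 1 to 2 (Btg2 and Phlda3 without OgaVav-Cre replicate 2). No member was past it downward without wildtype replicate 2 or 3, and without OgaVav-Cre replicate 3 the member was Rrm2b, so that Polk was past it in 3 of 6 such fits. Members whose genotypes did not overlap numbered 4 downward in RPKM (Mdm2, Mdm4, Polk and Tnfrsf10b). With each library left out, which leaves fewer libraries to separate, they numbered 1 to 4 upward and 2 to 7 downward. The share of all loci that separate was taken only in the CPM of the main fit, so these counts have no background beside them. The median log2 fold change of the members was -0.099 with RPKM + 0.1, where that of all loci was -0.065, and -0.073 to 0.045 with each library left out. The lowest came without OgaVav-Cre replicate 3. For regulators and further targets, the count lower at an unadjusted p below 0.05 was 1 without a filter, with DESeq2 and with the immunoglobulin covariate, against 3. With each library left out it was 0 to 4 (0 without OgaVav-Cre replicate 1 or wildtype replicate 3), and the count higher was 0 to 6, with 6 without wildtype replicate 1 and 0 without OgaVav-Cre replicate 2 or wildtype replicate 3. Beyond the settings that drop libraries, the cause of these moves was not tested. The share of all loci past an unadjusted p of 0.05 was taken only in the main fit. It is therefore not known whether these counts moved apart from those of other loci.

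Values that changed sign were, with RPKM + 0.1, Trp53 -0.024, Ccng1 -0.035, Trp53inp2 -0.20, Apaf1 -0.031 and Plk2 -0.25. With RPKM + 1 they were Trp53 -0.023, Ccng1 -0.033, Trp53inp2 -0.065, Apaf1 -0.026 and Plk2 -0.015. With the immunoglobulin covariate they were Bbc3 -0.013, Trp53inp1 -0.040, Trp53inp2 -0.14, Zmat3 0.041, Aen 0.041 and Cdkn1a 0.066. With limma-voom they were Trp53inp2 -0.21 and Plk2 -0.42. Aen was 0.0048 with RLE and 0.0055 with DESeq2. With each library left out, log2 fold changes ran from -0.073 to 0.049 for Bax, -0.10 to 0.53 for Bbc3, -0.047 to 0.12 for Ccng1, -0.10 to 0.38 for Trp53inp1, -0.41 to 0.44 for Trp53inp2 and -0.20 to 0.057 for Zmat3. They ran from -0.28 to 0.16 for Sesn2, -0.11 to 0.053 for Aen, -0.29 to 0.69 for Btg2, -0.52 to 0.39 for Gtse1, -0.17 to 0.23 for Apaf1 and -1.29 to 0.55 for Plk2. For Plk3 they ran from -0.028 to 0.71, for Xpc from -0.19 to 0.14, for Rps27l from -0.0030 to 0.36, for Tob1 from -0.32 to 0.11 and for Cdkn1a from -0.51 to 0.23.

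Deviations of same-numbered libraries from their group means correlated at -0.081, 0.26 and 0.32 over all loci. Those of differently numbered libraries correlated at -0.38 to 0.21. With so few libraries these values cannot decide whether the replicate numbers pair the libraries, and the main fit did not pair them. With the replicate block, Trp53inp2 was -0.16 and Plk2 -0.40, 2 members were lower at an unadjusted p below 0.05 (Polk and Rrm2b), and 0 passed both cutoffs.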
